A study of Mus musculus with 3 samples.

Results

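A set of 6 bone-formation genes, *Runx2*, *Sp7*, *Alpl*, *Ibsp*, *Spp1* and *Mgp*, was followed through single-cell RNA-seq of a mouse embryonic stem cell (mESC) tendon culture and of the embryonic tail. The rule for the set was the rows of these 6 named genes among the 27755 genes of the culture and tail tables and the 25936 genes of the earlier day 6 table, with unique molecular identifiers (UMIs) summed over the cells of each deposited cluster code. Levels are given as CPM, counts of a gene scaled to a common total of UMIs over all genes of the cells summed. The set was chosen with the levels in culture and tail already known, so those levels are given as descriptions without a test.

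The mESCs came from blastocysts of ScxGFP mice, in which a *Scx* regulatory region drives GFP, and were kept on mouse embryonic fibroblasts. Embryoid bodies received 500 nM LDN-193189, which blocks BMP receptors, from day 0 to day 2 and LDN-193189 with 5 μM CHIR, an activator of WNT signaling, to day 6, which gave the paraxial mesoderm (D6) library. From day 6 to day 10 the cells received 10 ng/mL TGFβ1, 100 nM SAG, a hedgehog agonist, and 10 ng/mL FGF2, which gave the tendon culture (D10) library, taken as a whole and unsorted. The tail library came from tails of E14.5 embryos (E, embryonic day) of ScxGFP mice, and the tail received no agent. The paper reports ScxGFP-positive mESC lines for its experiments, while carriage of the reporter by the tail embryos was not stated. The number of embryos, cultures and mESC lines behind a library was not stated. There was 1 library per group, so cells were not treated as replicates, no p-value was computed, and every interval is a 95% interval for counting error only.

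Bone-forming cells arise when mesenchymal cells switch on *Runx2* and then *Sp7*, transcription factors without which osteoblasts do not form. Osteoblasts then display the phosphatase encoded by *Alpl*, which removes the mineralization inhibitor pyrophosphate, and secrete bone sialoprotein (*Ibsp*) and osteopontin (*Spp1*), acidic proteins that bind mineral and integrins. Matrix Gla protein (*Mgp*) instead holds back mineral in soft tissue such as cartilage and vessels. Several of these genes are not particular to bone: *Alpl* is a long-used marker of pluripotent cells, and *Spp1* is also made by macrophages.

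*Spp1* and *Ibsp* lie near each other on mouse chromosome 5, in the order *Dspp*, *Dmp1*, *Ibsp*, *Mepe*, *Spp1*. Both were highest in the same cluster of the culture and in the same cluster at D6. In the tendon-like culture cells described below, however, *Spp1* was found and *Ibsp* was not. Their promoters are therefore shown together with that of *Runx2*. RefSeq (GRCm38.p6) promoter entries existed for 4 of the 6 genes (*Spp1*, *Runx2*, *Alpl* and *Ibsp*), with *Spp1* and *Alpl* having a pair of start sites each. Each sequence below holds the 250 bases before the start site, 5′ to 3′ on the strand of the gene, and capitals mark matches to 3 motifs on either strand. The octamer, a motif bound by POU factors, was searched as ATGCAAAT. The letters of the RUNX core were TGTGGT. The TATA element was searched as its usual core, TATAAA. The *Spp1* entries are chr5:104434861-104435110 and chr5:104435942-104436191, both on the plus strand, *Ibsp* is chr5:104299037-104299286 on the plus strand, and *Runx2* is chr17:44814628-44814877 on the minus strand.
Spp1 first start: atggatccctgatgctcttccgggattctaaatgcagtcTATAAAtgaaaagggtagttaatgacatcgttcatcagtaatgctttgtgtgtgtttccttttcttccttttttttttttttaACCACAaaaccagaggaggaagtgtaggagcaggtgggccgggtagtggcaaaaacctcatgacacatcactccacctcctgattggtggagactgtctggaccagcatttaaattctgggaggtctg
Spp1 second start: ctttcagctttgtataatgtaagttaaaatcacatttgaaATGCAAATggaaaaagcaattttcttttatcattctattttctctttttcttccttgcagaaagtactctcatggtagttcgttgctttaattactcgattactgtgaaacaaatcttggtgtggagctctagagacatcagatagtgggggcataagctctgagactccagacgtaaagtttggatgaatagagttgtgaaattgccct
Ibsp: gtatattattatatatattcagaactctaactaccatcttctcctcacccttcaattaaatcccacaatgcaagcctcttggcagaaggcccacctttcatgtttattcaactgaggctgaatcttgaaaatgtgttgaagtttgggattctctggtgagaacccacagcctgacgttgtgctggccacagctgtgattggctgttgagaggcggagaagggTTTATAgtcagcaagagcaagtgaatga
Runx2: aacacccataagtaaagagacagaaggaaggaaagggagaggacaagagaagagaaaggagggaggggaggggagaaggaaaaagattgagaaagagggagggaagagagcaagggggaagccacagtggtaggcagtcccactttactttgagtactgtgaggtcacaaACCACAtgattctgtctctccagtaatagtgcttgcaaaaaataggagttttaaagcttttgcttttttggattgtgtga
The start sites of *Spp1* lay 1081 bases apart, and the first of them lay 135824 bases from the *Ibsp* start. The first *Spp1* promoter held a RUNX core 128 bases before the start and a TATA element 211 bases before it, the second held an octamer 210 bases before the start, the *Ibsp* promoter held a TATA element on the other strand 28 bases before the start, and the *Runx2* promoter held a RUNX core 80 bases before the start. Of 32851 promoters of the same length, 14.0% held the RUNX core, 12.4% the TATA element and 1.60% the octamer. These matches are descriptions of letters, and the 3 motifs were chosen with the levels known. The 3′ counts do not say which *Spp1* start was used.

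The D10 culture library held 7821 cells with 53403944 UMIs, the tail 2052 cells with 31343741 UMIs and D6 5954 cells with 51858825 UMIs, and the median UMIs per cell were 5622, 13512 and 8171. The cluster codes are those deposited with the counts. In the paper, culture cells were placed into tail-defined clusters by nearest neighbors, so a shared code need not be a shared cell type. Code 3, for example, held a pluripotent marker list at 5748 CPM in culture and 6.67 CPM in the tail. Its epithelial list stood at 4487 CPM in the tail and 942 CPM in culture. By summed marker CPM, code 1 held tendon genes (7426 CPM in culture and 3690 in the tail over a list led by *Scx* and *Tnmd*), code 2 added proliferation genes (3307 and 3327 CPM over *Top2a*, *Mki67* and *Cenpf*) and code 4 cartilage genes (5611 and 10697 CPM over a list led by *Col2a1* and *Acan*). They are called tendon-like, proliferating tendon-like and cartilage-like here. Code 4 also held the tendon list, at 4462 CPM in culture and 2436 CPM in the tail, so its name does not mean that tendon genes were absent. The pluripotent marker list reached 5748 CPM in culture code 3 and 8106 CPM in D6 code 2, against 37.3, 42.0 and 31.3 CPM in culture codes 1, 2 and 4 and 4.54, 5.08 and 6.35 CPM in the same tail codes. The erythroid list stood at 591, 2032 and 1554 CPM in tail codes 1, 2 and 4 and at no more than 2.95 CPM in the same culture codes, and its part in the ratios was not tested. The osteoblast list, which holds *Ibsp* and *Sp7*, stood at 6.03, 10.2 and 3.61 CPM in culture and 21.0, 7.16 and 4.54 CPM in the tail. Cell barcodes shared between libraries numbered 4 for culture and tail, 10 for culture and D6, and 3 for tail and D6.

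In culture against tail, *Spp1* and *Mgp* were far higher in the tendon-like cells of the culture, *Runx2* differed little, and *Sp7*, *Alpl* and *Ibsp* were scarce in both. Of the 6 genes, 3 (*Spp1*, *Runx2* and *Mgp*) had a UMI in 10% or more of the cells, in culture or tail, in each of the 3 codes. Of these 3 detected genes, 2 were at least 2-fold higher in culture in code 1, against 5.76% of all 10418 genes with that detection. The number was 2 of the 3 in code 2, against 5.5% of 11232 genes, and 1 of the 3 (*Mgp*) in code 4, against 4.86% of 9986 genes. None of the 3 detected genes was at least 2-fold lower in culture, where 13.6%, 13.6% and 13% of all genes were lower in codes 1, 2 and 4. Since the genes were chosen on this comparison, nothing is read from these shares. The median gene itself had a culture over tail log2 ratio of -0.21, -0.18 and -0.18 in the 3 codes.

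**Figure D1:**
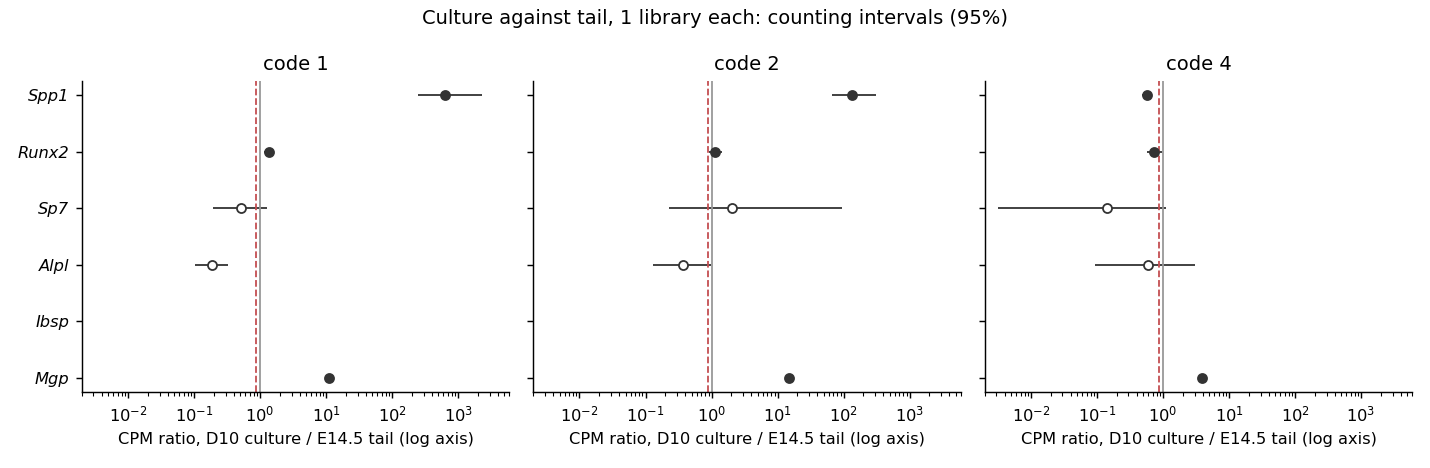
Ratio of CPM, D10 culture over E14.5 tail, on a log axis for the 6 genes in codes 1, 2 and 4, with 95% counting intervals. Filled points are genes that passed the 10% detection limit, open points are below it, the dashed line is the median gene, and *Ibsp* has no ratio; *Spp1* and *Mgp* lie far right of the line in codes 1 and 2, while *Spp1* lies left of it in code 4.

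*Runx2*, the gene that commits cells to the osteoblast lineage, was present at similar levels in both libraries. In culture it stood at 27.3 CPM in tendon-like cells (453 UMIs), 26.2 CPM in proliferating cells (281 UMIs) and 29.2 CPM in cartilage-like cells (97 UMIs). In the tail it stood at 19.8, 22.9 and 39.3 CPM (200, 99 and 130 UMIs). The culture levels were nearly level across the codes, while in the tail *Runx2* of the tendon-like cells was 0.503 times that of the cartilage-like cells (interval 0.401 to 0.632). Culture over tail, the ratio was 1.38 (1.17 to 1.64) in code 1, 1.15 (0.910 to 1.46) in code 2 and 0.742 (0.565 to 0.973) in code 4. The code 4 interval reached 1 when the ratio was taken relative to the median gene (0.839, 0.639 to 1.10) or when the cell with most *Runx2* UMIs in each library was left out (0.760, with an interval from 0.575 to just over 1). In code 2, where the interval included 1, it lay above 1 relative to the median gene (1.30, 1.03 to 1.65) and without the 5 cells with most *Runx2* in each library (1.49, 1.14 to 1.97).

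*Runx2* was low in pluripotent-marker clusters. Its highest levels outside codes 1, 2 and 4 were in tail code 9 at 52.6 CPM, culture code 9 at 50.1 CPM (22 UMIs in 53 cells) and D6 code 5 at 50.9 CPM, which held 300 of the 317 *Runx2* UMIs of that library. Tail code 3, with an epithelial marker list at 4487 CPM, stood at 17.5 CPM (21 UMIs in 5 of 49 cells). This level rested on 1 cell, which held 16 of the 21 UMIs. In pluripotent-marker cells it was 0.853 CPM in culture code 3, with a UMI in 9 of 1088 cells (0.827%). Thinning to 3000 UMIs per cell left 0 of 1081 such cells in one draw and 4 (0.370%) in another. After the first draw, 7.51%, 6.94% and 8.58% of culture cells and 6.05%, 6.99% and 8.75% of tail cells of codes 1, 2 and 4 had a *Runx2* UMI. The unthinned shares in code 1, 13.0% and 17.1%, stood in the opposite order, at median depths of 4918.5 UMIs in culture and 13463 in the tail.

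*Sp7*, the factor that acts after *Runx2* in the osteoblast, was at the limit of detection. Over codes 1, 2 and 4 it had 10, 5 and 1 UMIs in culture and 12, 1 and 7 UMIs in the tail, no level being above 2.12 CPM. The ratios, 0.509 (0.197 to 1.28), 2.02 (0.226 to 95.6) and 0.142 (0.00315 to 1.11), all had intervals that include 1. The whole culture library had 18 *Sp7* UMIs, the tail 23 and D6 11.

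*Alpl*, the mineralizing phosphatase, was lower in the tendon-like cells (code 1) of the culture than in those of the tail and highest in clusters with pluripotent markers. In codes 1, 2 and 4 it had 17, 9 and 3 UMIs in culture (1.02, 0.840 and 0.902 CPM) and 55, 10 and 5 UMIs in the tail (5.43, 2.31 and 1.51 CPM). The ratio was 0.189 (0.103 to 0.330) in code 1, 0.364 (0.131 to 0.996) in code 2 and 0.597 (0.0927 to 3.07) in code 4. The code 2 interval included 1 relative to the median gene (0.413, 0.148 to 1.13) and without the highest cell of each library (0.460, 0.146 to 1.49). Under 10% of the cells of these codes had a UMI in either library, so the gene did not enter the count of genes that were lower. Culture code 3 held 97.2 CPM, 94.9 times the tendon-like cells of the same library (59.0 to 163), and culture codes 6 and 5 held 51.9 and 32.9 CPM beside pluripotent list levels of 3204 and 1164 CPM, but the 43 cells of code 13 had no *Alpl* UMI at a list level of 3345 CPM. At D6, code 2 held 226 CPM, 11.5 times code 1 (10.3 to 12.9). At 3000 UMIs per cell, 24.8% of culture code 3 cells and 43.7% of D6 code 2 cells had an *Alpl* UMI, against 0.231% of culture tendon-like cells.

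*Ibsp*, the bone sialoprotein gene, had no UMI in culture codes 1, 2 and 4, where the floor of 3 counts corresponds to 0.181, 0.280 and 0.902 CPM, and 1, 0 and 2 UMIs in the same tail codes, so no fold is given. Its 15 UMIs in the culture library all came from 4 cells of code 9, 12 of them from 1 cell. At D6, 44 of its 45 UMIs lay in code 5, in 17 cells (7.46 CPM). *Ibsp* was thus listed in the clusters in which *Spp1* was highest, which the next paragraphs describe, but not in the *Spp1*-positive tendon-like cells.

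*Spp1*, the osteopontin gene, had the highest culture over tail ratio of the members in codes 1 and 2, but not in code 4. Tendon-like cells of the culture held 4170 *Spp1* UMIs (251 CPM, 244 to 259) and those of the tail 4 UMIs (0.395 CPM), a ratio of 636 (248 to 2336). Proliferating tendon-like cells held 2611 UMIs (244 CPM) and 8 UMIs (1.85 CPM), a ratio of 132 (66.9 to 306). Within the culture, both tendon-like codes had the same level within counting error, with a ratio of 1.03 (0.981 to 1.08). The cartilage-like cells of the culture were lower at 78.5 CPM (261 UMIs), and the tendon-like cells stood at 3.20 times that level (2.83 to 3.64).

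In cartilage-like cells the tail appeared higher for *Spp1*, at 456 UMIs (138 CPM) and a culture over tail ratio of 0.569 (0.487 to 0.664), but 448 of the 456 UMIs came from 1 of the 241 cells. Leaving out the cell with most *Spp1* UMIs in each library, a choice made after the values were seen, turned the ratio to 27.7 (13.8 to 65.1). That tail cell held 34483 UMIs, with 403 of *Col2a1*, 118 of *Shh*, 54 of *T*, 33 of *Krt8*, 29 of *Acan*, 12 of *Mgp*, 5 of *Runx2*, and none of *Alpl*, *Ibsp*, *Sp7* or the macrophage genes *Tyrobp* and *C1qa*. *T* and *Shh* are known from the notochord, the axial rod of the embryo. It was not called a doublet. A further tail cell, in code 7, held 52 of that code's 54 *Spp1* UMIs, with 25 of *T*, 11 of *Shh* and 49 of *Krt8*.

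**Figure D2:**
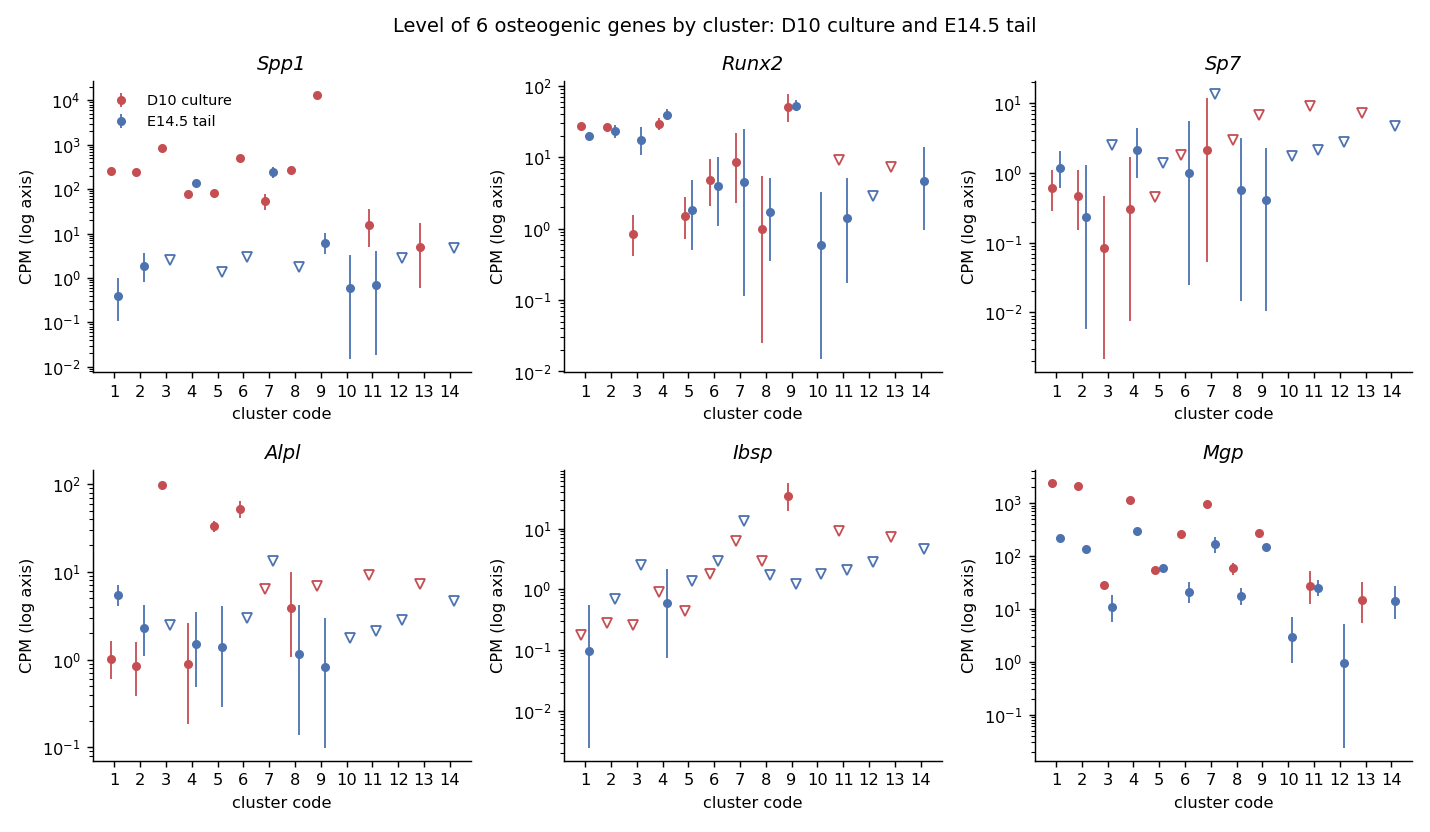
CPM of the 6 genes by deposited cluster code in the D10 culture and the E14.5 tail on a log axis, with 95% counting intervals; codes with at least 20 cells are drawn, and open triangles mark groups with 0 UMIs at the 3-count floor. *Spp1* stands at 13352 CPM in culture code 9, 848 in code 3 and 251 in code 1, against 0.395 in tail code 1.

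The level of *Spp1* in the tendon-like cells of the culture was below that of codes 3, 6 and 9 and above that of codes 4, 5, 7, 11 and 13. The interval of code 8 (237 to 301 CPM) overlapped that of code 1 (244 to 259 CPM). Culture code 3, with pluripotent markers, stood at 848 CPM, 3.37 times code 1 (3.25 to 3.50), and 90.7% of its cells had a UMI, with a median of 7. Culture code 9 stood at 13352 CPM (13012 to 13698), 53.1 times code 1, so that 53 cells, 0.678% of the library, held 5862 UMIs or 23.9% of all its *Spp1*. Its 5 highest cells held 65.4% of these UMIs, and the other 48 stood at 5408 CPM (5175 to 5648), a choice of cells made after the values were seen. Codes 6, 8, 5 and 7 stood at 499, 267, 83.2 and 53.0 CPM. The lowest among the codes with over 20 cells were code 11, endothelial-like by a marker list at 2611 CPM, at 15.2 CPM and code 13 at 4.86 CPM. In the tail, code 9 held 15 *Spp1* UMIs (6.17 CPM) in 3 cells, each with at least 3 UMIs of the macrophage list, and no other code but 4 and 7 exceeded 1.85 CPM.

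In culture code 9, 5 of 53 cells had at least 3 macrophage-list UMIs, and these held 393 of its 5862 *Spp1* UMIs. They stood at 7199 CPM and the other 48 cells at 14226 CPM. Few cells carried both levels: without the highest cell of each group they were 4945 and 10840 CPM, and without the 3 highest of each 66.4 CPM (1 UMI in 2 cells) and 6724 CPM. The 3 highest cells of the cluster, with 1435, 1002 and 725 UMIs, had no UMI of *Tyrobp* or *C1qa*. In D6 code 5, the cluster with *Runx2*, the 20 such cells among 662 stood at 8003 CPM, all with a *Spp1* UMI, and the other 642 at 2627 CPM, and without the 5 highest cells of each group at 2676 CPM (2473 to 2891) and 2286 CPM (2246 to 2327).

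At D6, before tendon induction, *Spp1* was high in 2 of the 6 codes. It stood at 2928 CPM in code 5 and 913 CPM in code 2, against 33.9, 15.7, 31.3 and 29.0 CPM in codes 1, 3, 4 and 6. In D6 code 1 the 1% of cells with most *Spp1* held 75.6% of its UMIs, the highest cell having 100 of 616, and 166 of 2539 cells had a UMI. *Mgp* was nearly absent at D6, with 225 UMIs in all, of which 184 lay in code 5 (31.2 CPM) and 38 in code 4 (6.25 CPM). Codes of the D6 table were deposited separately, so a D6 code is not the culture code of the same number.

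**Figure D3:**
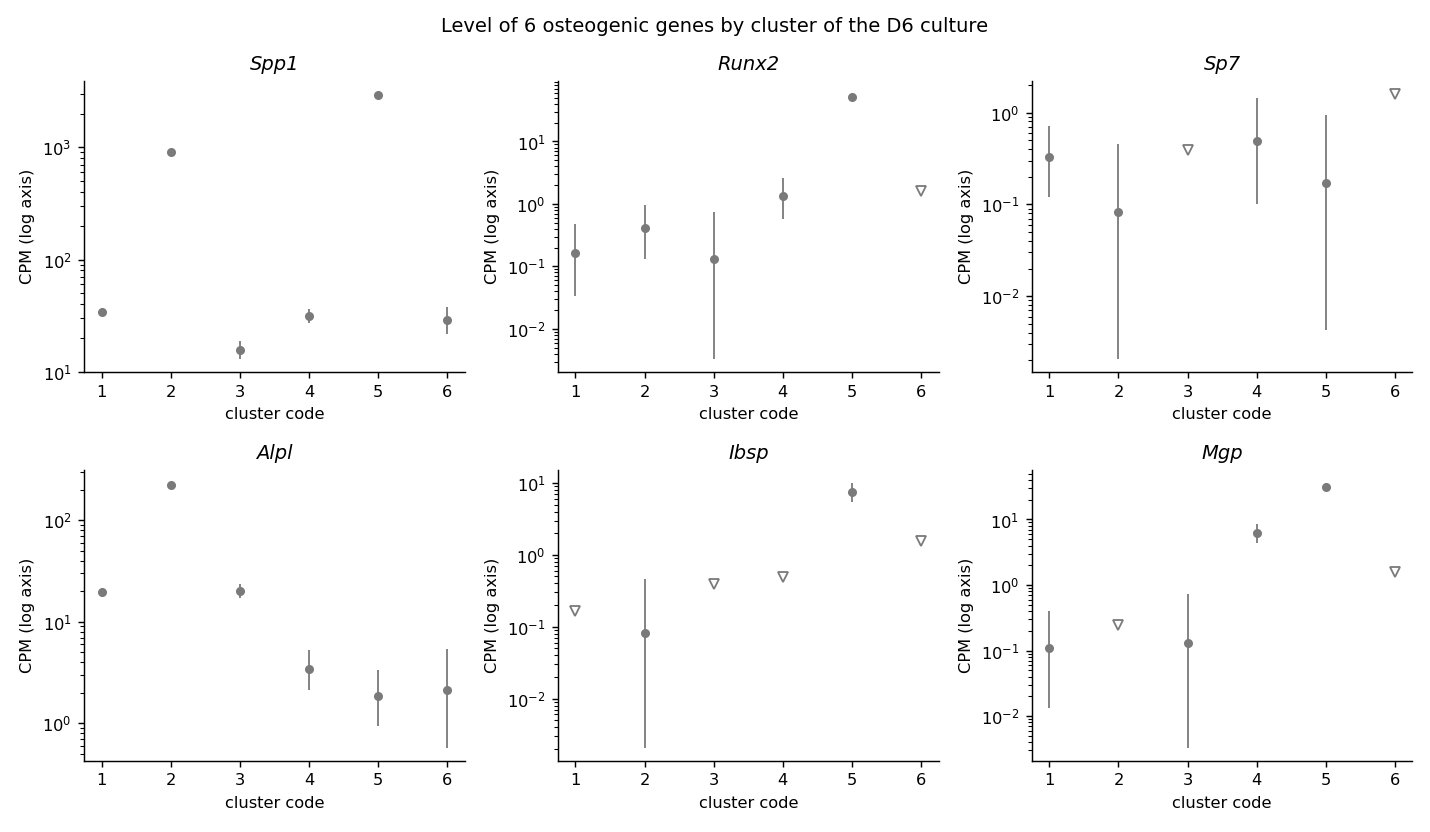
CPM of the 6 genes in codes 1 to 6 of the D6 paraxial mesoderm library on a log axis, with 95% counting intervals and open triangles for 0 UMIs at the 3-count floor. *Spp1* stands at 2928 CPM in code 5 and 913 in code 2, *Alpl* is highest in code 2 (226) and *Runx2* in code 5 (50.9).

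A small share of the tendon-like cells carried much of the *Spp1*. In culture code 1, 734 of 2964 cells had a UMI, the highest cell had 189, and the 30 cells (1%) with most held 38.9% of the UMIs. In code 2, 387 of 1353 cells had a UMI, with a highest cell of 307 and 44.3% in the top 1%. In code 4, 95 of 855 cells had a UMI and the top 1% held 51.7%. In the pluripotent-marker code 3 the top 1% held 5.58%, which shows a far more even spread. Leaving out the 5 cells with most *Spp1* in each library kept the ratio high, at least 726 in code 1, where no tail UMI was left, and 735 (132 to 29031) in code 2.

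**Figure D4:**
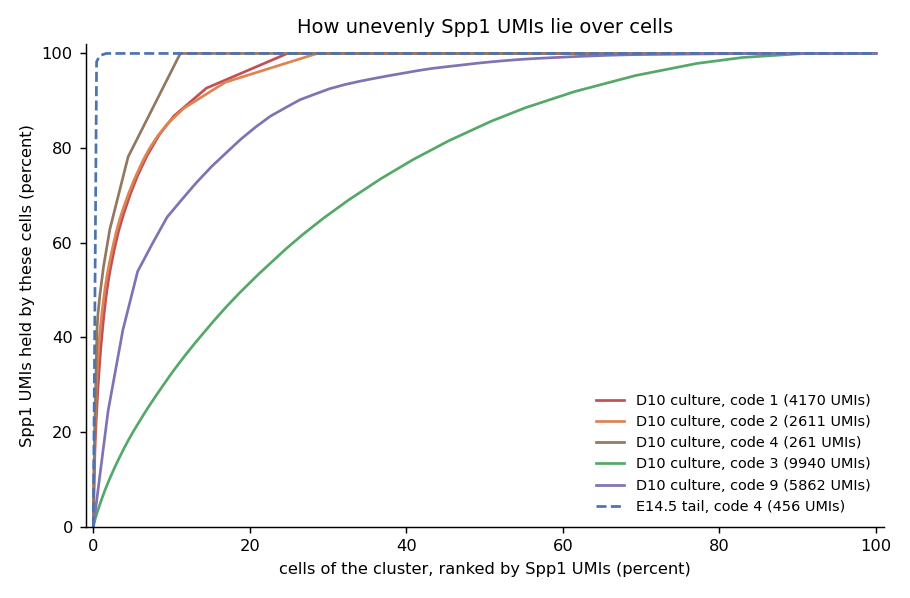
Share of the *Spp1* UMIs of a cluster (%, vertical) held by its cells ranked from the highest (%, horizontal), for culture codes 1, 2, 4, 3 and 9 and tail code 4. The tail code 4 curve reaches 98.2% with its first cell, and the curve of culture code 3 rises the most gradually.

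After thinning to 3000 UMIs per cell, *Spp1* was found in 20.4% of tendon-like cells of the culture (18.9 to 22.0; 529 of 2595 cells), 17.4% of proliferating cells and 10.6% of cartilage-like cells. In the tail it was found in 1 of 678, 1 of 186 and 1 of 240 cells of the same codes. Background shares were 6.38% (1.34 to 17.5) in the endothelial-like code 11 of the culture, at a median depth of 5157 UMIs against 4918.5 in code 1, and 0 of 125 cells in tail code 12, blood-like with an erythroid list at 383297 CPM (median depth 8391.5), which allows up to 2.4% by the floor of 3 counts. The tail shares thus lay at background, and the interval of culture code 1 lay above that of code 11, while the intervals of code 2 (15.5 to 19.6) and code 4 (8.33 to 13.3) overlapped it, code 11 resting on 47 cells. Without thinning, the shares in code 1 were 24.8% in culture and 0.584% in the tail.

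*Mgp*, the inhibitor of mineral, was the most widely found member in the culture and tail libraries. In culture it stood at 2395, 2083 and 1173 CPM in codes 1, 2 and 4, and in the tail at 216, 139 and 297 CPM. The culture was higher in every one of these codes, at ratios of 11.1 (10.6 to 11.6), 15.0 (13.9 to 16.3) and 3.95 (3.68 to 4.24). The order within each library was opposite, since tendon-like cells of the culture stood at 2.04 times its cartilage-like cells (1.98 to 2.11) and those of the tail at 0.727 times (0.674 to 0.784). At 3000 UMIs per cell 96.0%, 94.0% and 87.7% of culture cells had a UMI, against 36.3%, 28.0% and 36.3% of tail cells, and the background was 4.26% in culture code 11 and 0 of 125 in tail blood cells. Outside these codes *Mgp* was 985 CPM in culture code 7, 273 in code 9, 263 in code 6 and 28.2 in code 3, and 148 CPM in tail code 9.

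The members were seldom found together beyond the pairs that include *Mgp*. Of the thinned culture tendon-like cells, 34 had both *Spp1* and *Runx2*, beside 39.8 if the genes were independent, and the numbers were 19 beside 16.2 in code 2 and 7 beside 5.83 in code 4. *Spp1* and *Mgp* were found together in 517 cells of code 1, beside 508. *Runx2* and *Mgp* met in 184, 89 and 49 culture cells of codes 1, 2 and 4, beside 187, 87.4 and 48.2, and in 24, 4 and 10 tail cells, beside 14.9, 3.63 and 7.61. Without thinning and leaving out *Mgp*, few cells had UMIs of at least 3 of the other 5 genes. They numbered 3, 0 and 0 in culture codes 1, 2 and 4 and 0, 0 and 1 in the tail, whose cells were deeper.

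*Dmp1* and *Phex*, genes known from the osteocyte, the cell embedded in bone, were higher in the tendon-like cells richest in *Spp1*. This grouping, and the genes set beside it, were chosen after values were seen. In culture code 1, *Dmp1*, a matrix gene next to *Ibsp*, stood at 29.8 CPM (22 UMIs) in the 93 cells with at least 10 *Spp1* UMIs, 0.948 CPM in 641 cells with 1 to 9 UMIs and 0.258 CPM in 2230 cells with none. In code 2 it stood at 79.4, 1.01 and 0.138 CPM (40, 3 and 1 UMIs in 51, 336 and 966 cells). The *Dmp1* UMIs came from few of the *Spp1*-rich cells, 10 of 93 in code 1 and 14 of 51 in code 2, where 1 cell held 17 of the 40. Without the highest cell, left out after its value was seen, *Dmp1* stood at 20.6 CPM (11.5 to 34.0) in code 1 and 46.6 CPM (29.5 to 69.9) in code 2. *Phex*, an endopeptidase gene, stood at 17.6, 1.18 and 0.516 CPM in code 1 and 17.9, 1.68 and 0.554 CPM in code 2. These 2 genes gave 22 and 13 of the 36 osteoblast-list UMIs of the *Spp1*-rich cells of code 1. *Ifitm5*, an osteoblast gene, stood at 0, 0.474 and 1.29 CPM along the same groups of code 1 and *Bglap3*, of the osteocalcin family, whose near-identical copies can share reads, at 0, 0.237 and 0.516 CPM, counts too low to rank the groups. *Tnfrsf11b*, which encodes an inhibitor of osteoclast formation, stood at 50.2, 25.4 and 15.5 CPM in code 1, and at 27.5 CPM in the *Spp1*-rich cells without the 1 cell that held 17 of their 37 UMIs. In code 2 it stood at 13.9, 18.8 and 9.42 CPM. *Sost*, an osteocyte gene, had no UMI in culture codes 1, 2 and 4. Median depths fell along these groups, from 7063 to 5696 to 4662.5 UMIs in code 1. The pluripotent list moved the same way, at 99.0, 59.7 and 25.2 CPM in code 1 and 240, 44.9 and 27.0 CPM in code 2, while the macrophage list stood at 13.6, 7.82 and 3.95 CPM in code 1 and, in the opposite order, at 1.98, 3.02 and 3.46 CPM in code 2. Their part in the result was not tested.

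*Mgp* stood at 4212, 2933 and 2085 CPM from the *Spp1*-rich to the *Spp1*-free cells of code 1, and *Scx*, the tendon factor gene, at 3454, 2979 and 2138 CPM. The whole tendon list, which holds *Scx*, went the other way in code 1, at 6213, 7138 and 7607 CPM. In code 2 that list was nearly level, at 6985, 6967 and 6964 CPM. *Runx2* stood at 29.8, 24.6 and 28.1 CPM in code 1 and at 39.7 (24.2 to 61.3), 28.5 (22.7 to 35.2) and 24.4 CPM (20.9 to 28.3) in code 2, with overlapping intervals in both codes. *Sp7* had 0, 6 and 4 UMIs in code 1. In the tail *Dmp1* had 0, 1 and 0 UMIs in codes 1, 2 and 4.

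**Figure D5:**
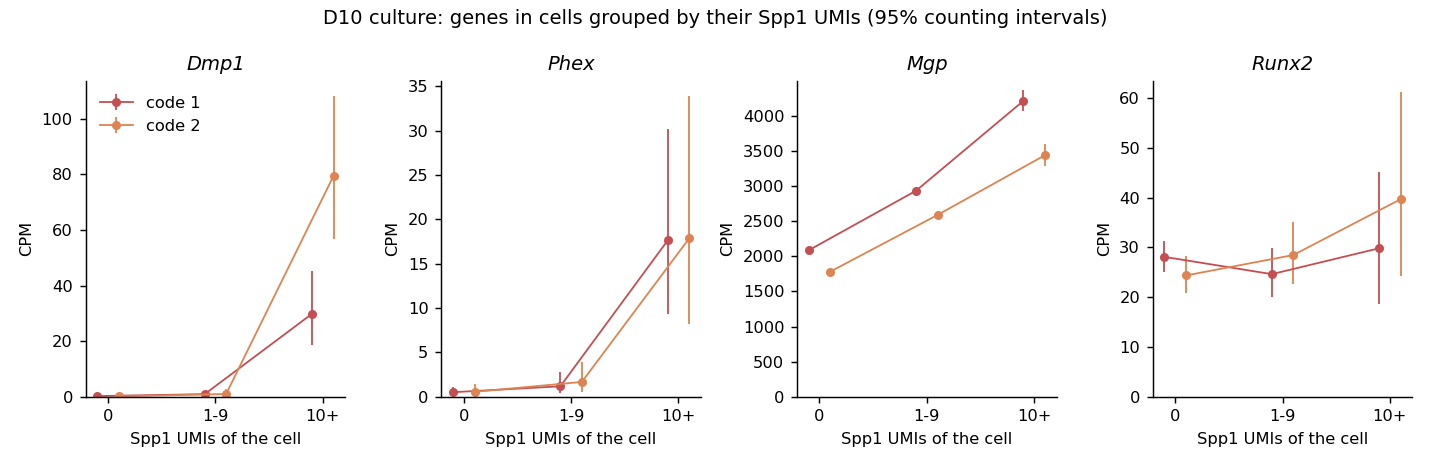
CPM of named genes in culture cells of codes 1 and 2 grouped by their own *Spp1* UMIs (none, 1 to 9, at least 10), on a linear axis with 95% counting intervals. *Dmp1* and *Phex* lie highest in the *Spp1*-rich cells, while *Runx2* stays between 24.4 and 39.7 CPM in every group.

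In a wider list of 57 bone and mineral genes, 52 were in the tables and 30, 30 and 26 passed the 10% detection limit in codes 1, 2 and 4. Of these, 7, 7 and 4 were at least 2-fold higher in culture, where 5.76%, 5.5% and 4.86% of all genes were, and 4, 5 and 5 at least 2-fold lower, where 13.6%, 13.6% and 13% of all genes were. The list's median log2 ratio was 0.18, 0.16 and 0.23, beside -0.21, -0.18 and -0.18 for all genes. The members are part of this list.

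Among the mineral regulators, *Ank*, which carries the mineralization inhibitor pyrophosphate out of the cell, was higher in culture at 10.3 (8.25 to 12.9), 7.56 and 2.01 times the tail in codes 1, 2 and 4. *Enpp1*, which makes pyrophosphate, was higher at 3.32, 4.34 and 1.42 times, the last below 2-fold. *Slc20a1*, a phosphate transporter, stood at 5.02, 2.18 and 2.88 times. *Phex* was lower, at 1.45 against 16.3 CPM in code 1 (ratio 0.0888), and at 0.455 times (18 and 16 UMIs) in code 2.

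Among the transcription factors, *Runx1* stood at 4.01, 4.26 and 1.60 times the tail and *Dlx5* at 2.26, 30.3 (4 tail UMIs, 11.7 to 112) and 2.16 times, the last under the detection limit, while *Twist2* stood at 0.180, 0.0997 and 0.320 times. *Msx1* and *Msx2* had 2 and 3 UMIs in code 1 of the culture and 315 and 150 in the tail. *Runx3* stood at 0.270 times in code 2 and 0.353 times in code 4. *Dlx6*, *Msx1* and *Msx2* had 27, 0 and 0 UMIs in code 2 of the culture and 0, 20 and 24 in the tail.

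Of the 7 receptor genes of *Spp1* and *Ibsp*, those that passed the detection limit had a median log2 ratio of 0.55, 0.37 and 0.33 in codes 1, 2 and 4. *Itgav* stood at 1.93, 1.78 and 1.70 times the tail and *Itgb5* at 1.54, 1.98 and 1.35 times, all below 2-fold. *Cd44* was lower at 0.179, 0.232 and 0.111 times, the last on 2 and 18 UMIs, and *Itga9* stood at 0.794, 0.700 and 0.483 times. *Itgb3* in code 1 (2.85 times, 42 and 9 UMIs) and *Itga4* in code 4 (4.12 times, 29 and 7 UMIs) were over 2-fold but under the detection limit.

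Among the bone morphogenetic signals, *Bmp2* was lower at 0.176, 0.198 and 0.132 times the tail, while *Bmp4* stood at 1.65, 1.83 and 1.63 times. *Pth1r*, a receptor gene of growth plate cartilage, was lower at 0.418 times in code 2 and 0.318 times in code 4, and *Ihh* had 0 and 20 UMIs in code 4. *Sparc*, a bone matrix gene, stood at 2.21 times in code 4. *Tnfrsf11b* stood at 8.99 times in code 1 (324 and 22 UMIs) and 5.89 times in code 2 (131 and 9), under the detection limit in both. *Omd* and *Smpd3* stood at 0.416 (15 and 22 UMIs) and 0.128 times (4 and 19) in code 1.

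Genes with the pattern most like each member were sought by Pearson's r of log2(CPM + 1) over 27 groups of a code in a library with at least 50 cells, among 8459 genes. The groups share libraries, and r is a description. For *Spp1* they were *Nupr1* (0.84), *Ano3* (0.83) and *Cdkn2a* (0.80), and for *Runx2* they were *Inhba* (0.96), *Col6a3* (0.93) and *Ddr2* (0.93). For *Alpl* they were *Nanog*, a core pluripotency gene (0.91), 1700019D03Rik (0.91) and Gm48377 (0.90), and for *Mgp* they were *Fgf18* (0.91), *Ogn* (0.90) and *Tgfb3* (0.89). *Sp7* and *Ibsp* reached 50 CPM in no group, so theirs are left out. The genes named depended on the setting. Over culture and tail groups only, those for *Mgp* were C630043F03Rik, *Apod* and *Wisp1*. With 10 instead of 1 added to the CPM, those for *Spp1* were *Nqo1*, *Ano3* and *Ak1*. Under both settings *Inhba* stayed first for *Runx2* and *Nanog* stayed listed for *Alpl*.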

How the data were processed

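Cells of 3 libraries were profiled by 10x 3′ single-cell RNA-seq. The raw UMI counts per gene and cell and the cluster codes were deposited by the authors, who used Cell Ranger and Seurat 3.0, ignored reads mapping to several genes and removed cells with over 7.5% mitochondrial counts and the 2% at either end of the count distribution; the genome build of the counts is not given in the sources used here. Clusters were not remade. Counts were summed per code and library and divided by all UMIs of those cells (CPM), with exact Poisson, conditional binomial (ratios) and Clopper-Pearson (shares) 95% intervals, which cover counting error only. A group with 0 UMIs was set to a floor of 3 counts over the group. Shares of cells were taken after thinning to 3000 UMIs per cell (seed 1), and shallower cells were left out. Scrublet in Scanpy 1.11.5 called 116, 9 and 81 doublets in culture, tail and D6, and these cells were kept; Python 3.11.15, NumPy 2.4.6 and SciPy 1.17.1 were used. The scripts were tested on simulated data. Named genes were the 6 members, the listed genes with at least 20 UMIs and 2-fold apart, 3 most alike genes per member and cell type markers. *T*, *Shh*, *Sost*, *Bmp4* and the receptor genes under 2-fold were named after their values were seen. Members, lists, motifs and cell groups were chosen with earlier results of these data known. Alternatives were other folds, filters, depths and cell subsets.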

Additional observations from a re-analysis of the deposited data

Results flagged for a closer look

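The culture over tail ratio of *Spp1* pointed in opposite directions between clusters, at 636 in code 1, 132 in code 2 and 0.569 in code 4, and the difference between clusters was not tested, there being 1 library per group. The code 4 value rested on 1 tail cell with 448 of 456 UMIs. The ratio of *Runx2* was 1.38 in code 1 and 0.742 in code 4, and that difference was not tested.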

How the results depend on the processing

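No paired analysis was possible because each group had 1 library. Of the main values under alternatives, 64 kept their direction and size, 4 moved and 4 changed direction, all of the last for *Spp1* in code 4. Its ratio of 0.569 became 27.4 without cells holding UMIs of pluripotency genes (which left out the 1 tail cell), 1.30 as a mean of single-cell CPM, at least 46.9 without the 5 cells with most *Spp1* in each library and 27.7 without the 1 cell, the last chosen after seeing the data. In code 2 the *Spp1* ratio was 735 without the 5 cells. Members at least 2-fold higher in code 4 numbered 0 at 4-fold and 2 without the pluripotency cells, and members lower in code 4 numbered 1 at 1.5-fold. Among genes with at least 20 UMIs instead of 10% detection, 9.41%, 8.38% and 7.78% of genes were higher and 20.7%, 15.5% and 14.9% lower in codes 1, 2 and 4. Of the single-gene values, 175 held and 87 moved. Under the alternatives the *Mgp* ratio moved in 8 cases and held in 16, and the *Runx2* ratio moved in 1 and held in 23. Depth limits *Sp7*, *Ibsp* and, in codes 2 and 4, *Alpl*.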

Other observations

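Cells with UMIs of both *T* and *Shh*, a choice made after the highest tail cells were seen, numbered 2 in the tail and held 500 of its 539 *Spp1* UMIs (92.8%). In the D10 culture 1 such cell held no *Spp1* UMI, and at D6 11 such cells held 167 of 29365 *Spp1* UMIs (0.569%).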
